A study of Mus musculus with 10 samples.

Results

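The genes described here are 10 feedback genes and outputs of the ERK pathway, namely the MAP kinase phosphatase genes Dusp4, Dusp5 and Dusp6, the Sprouty genes Spry1, Spry2 and Spry4, the SPRED genes Spred1 and Spred2, and the ETS factor genes Etv4 and Etv5. They were chosen by symbol, through the GENCODE M21 annotation of the Ensembl IDs, from a table of 54446 genes, and all 10 passed the filter on low counts that left 15181 tested genes. The members and the gene lists below were chosen with earlier results of these data known. Their counts beside the shares over all genes are therefore a description. Messenger RNA had been sequenced from primary smooth muscle cells of mouse aorta, cultured to passage 2. The mutant cells (WWv, 5 libraries) came from mice with the genotype KitW/Wv, which carry a W and a Wv allele of Kit in every cell, and the control cells (WT, 5 libraries) came from wild type mice. The protocol names 5 mice of each genotype. It does not say which mouse gave which library, and the sources used here give no sex, age, strain or culture batch, so p-values measure the spread between these libraries.

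Kit encodes c-Kit, a receptor tyrosine kinase that binds stem cell factor, and like other such receptors it drives the cascade of RAS, RAF, MEK and ERK kinases. Active ERK switches on genes whose products shut the cascade down again. Dual-specificity phosphatases remove phosphate from ERK and related kinases. Sprouty proteins hold back signalling between receptor and RAF. SPRED proteins bring neurofibromin, the protein that turns RAS off, to the membrane, and carry a region known to bind c-Kit. ETV4 and ETV5 are transcription factors of the PEA3 group, known as readouts of growth factor signalling through ERK. The W allele makes a receptor that does not reach the cell surface and the Wv allele a receptor with a weak kinase. The comparison therefore asked how transcripts that report on ERK feedback stood in smooth muscle cells with crippled c-Kit.

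At an edgeR adjusted p under 0.05, 2 of 10 members were higher in WWv than in WT and 0 were lower, against 12.8% of all tested genes higher and 15.4% lower (1940 and 2334 genes, or 983 and 3599 when libraries were scaled by their totals only). The 2 were Dusp4, which was 1.60-fold higher, and Spry4, which was 1.26-fold higher. In the other 8 the difference did not pass the threshold. In all 10 members the libraries of both groups overlapped. Groups without overlap were seen in 15.9% of all tested genes, and with WWv higher in 8.03%. At such shares few of 10 genes would lack overlap, so this does not set the members apart. The median log2 fold change was 0.16 over the members and -0.01 over all tested genes.

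Library totals ranged from 42040255 to 53863661 counts, and each member had between 463 and 5907 counts in every library. Kit stood between 0.929 and 3.01 CPM (counts scaled to the size of the library) in WWv, against 3.19 to 4.92 CPM in WT. The smooth muscle markers were abundant, with 7 markers summing to 16760 to 20145 CPM in WWv and 9953 to 13017 CPM in WT, and 5 of 7 were higher in WWv. The WT library numbered 2, WT 2, stood apart from the other WT libraries. It was singled out from these same data, so the results without it below are a description. It lay at 20.2 on the first principal component, within the 11.5 to 33.4 of WWv, while the other WT libraries lay between -51.1 and -29.1. On the second component it lay at -42.9, apart from both the WWv libraries (-20.2 to 23.1) and the other WT libraries (-12.0 to 7.38). Its 6 endothelial markers summed to 308 CPM, against 85.3 to 196 CPM in WWv and 52.4 to 91.7 CPM in the other WT libraries. Its 20 cell cycle genes averaged 5.54 log2 CPM, against 5.36 to 5.57 in WWv and 4.84 to 5.01 in the other WT libraries. Their part in the results below was not tested, and in bulk RNA fewer cells of a type and less RNA per cell cannot be told apart. The 5 mast cell markers summed to at most 0.0962 CPM in WWv and 0.648 CPM in WT.

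Dusp4 encodes a nuclear phosphatase that is induced by ERK and acts on ERK and on other MAP kinases (chromosome 8, 34807297 to 34819894, plus strand, mm10). It stood at 123, 92.0, 109.8, 86.5 and 80.3 CPM in WWv replicates 1 to 5, against 51.7, 81.4, 70.7, 48.9 and 53.8 CPM in WT replicates 1 to 5. Only WT 2 reached into the WWv range, just above WWv 5, the lowest WWv library. The means were 98.2 ± 17.5 CPM in WWv and 61.3 ± 14.1 CPM in WT (SD, n = 5 each). This was a log2 fold change of 0.68 ± 0.16 (SE, edgeR quasi-likelihood, adjusted p = 0.011), with 5 of 5 WWv libraries above the WT mean. Without WT 2 the groups could not overlap, since no other WT library reached the WWv range, and the change was 0.81 ± 0.14 (edgeR adjusted p = 0.00101).

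Dusp5 encodes a nuclear phosphatase that acts on ERK alone among the MAP kinases (chromosome 19, 53529109 to 53542431, plus strand). Its levels were 42.1, 35.4, 41.3, 35.1 and 32.5 CPM in WWv, against 29.0, 43.8, 27.1, 22.7 and 17.0 CPM in WT. All WWv libraries lay above 4 WT libraries and only WT 2 was higher. The change of 0.42 ± 0.20 did not pass (95% interval -0.03 to 0.87, edgeR adjusted p = 0.148). Without WT 2 it was 0.64 ± 0.14 (edgeR adjusted p = 0.00376). AC137853.2 lies on the opposite strand and shares 547 of the 2473 exon bases of Dusp5, and since the strand setting of the counting is not known, reads of the pair cannot be told apart.

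Dusp6 encodes a cytoplasmic phosphatase that is also selective for ERK (chromosome 10, 99263231 to 99267489, plus strand) and is widely used as a readout of ERK activity. Its levels were 43.6, 28.6, 32.9, 30.4 and 26.7 CPM in WWv, against 30.0, 45.1, 35.0, 26.3 and 21.04 CPM in WT. The ranges were almost the same, with WWv 1 and WT 2 well above the other libraries of their groups. The change was 0.04 ± 0.19 (95% interval -0.38 to 0.47, edgeR adjusted p = 0.888). Dusp6 did not pass without WT 2 either (0.21 ± 0.16, edgeR adjusted p = 0.311).

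The start regions of Dusp5 and Dusp6 are shown because these genes encode phosphatases for the same substrate and differ in their motifs. RefSeq promoter windows of GRCm38.p6, from 250 bases before to 50 bases after a start, were found for 7 of 10 members, with Dusp4, Spry4 and Etv4 not matched. Capitals mark the CArG box, which serum response factor binds, and the letters AGGAAG of a PEA3 motif, each read on both strands.
Dusp5, chr19:53528895-53529194, plus strand: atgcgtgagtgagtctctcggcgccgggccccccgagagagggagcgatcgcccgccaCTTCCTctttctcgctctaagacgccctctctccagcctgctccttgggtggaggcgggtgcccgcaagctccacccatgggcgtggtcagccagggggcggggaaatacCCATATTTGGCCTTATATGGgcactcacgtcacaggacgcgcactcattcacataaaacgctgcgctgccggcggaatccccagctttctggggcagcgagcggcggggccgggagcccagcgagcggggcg
Dusp6, chr10:99262981-99263280, plus strand: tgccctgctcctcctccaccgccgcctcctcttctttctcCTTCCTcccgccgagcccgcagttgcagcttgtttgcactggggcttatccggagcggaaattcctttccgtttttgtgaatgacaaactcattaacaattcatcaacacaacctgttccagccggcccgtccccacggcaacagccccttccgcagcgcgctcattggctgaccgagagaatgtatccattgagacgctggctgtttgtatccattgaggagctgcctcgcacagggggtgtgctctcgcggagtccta
In Dusp5 a pair of CArG boxes begin 82 and 72 bases before the start, next to each other and without overlap. Dusp6 holds no CArG box in this window. Among all windows 1.63% hold a CArG box, and among the 8 windows of the members only that of Dusp5 does. The PEA3 motif begins 192 bases before the start in Dusp5 and 210 bases before it in Dusp6, and 35.4% of all windows hold it. Neither TGACGTCA, the cAMP response element, nor TGAGTCA or TGACTCA, the AP-1 site, was found in any of the 8 windows, against 1.79% and 5.2% of all windows. A match in these letters describes the sequence and does not show binding.

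**Figure D1:**
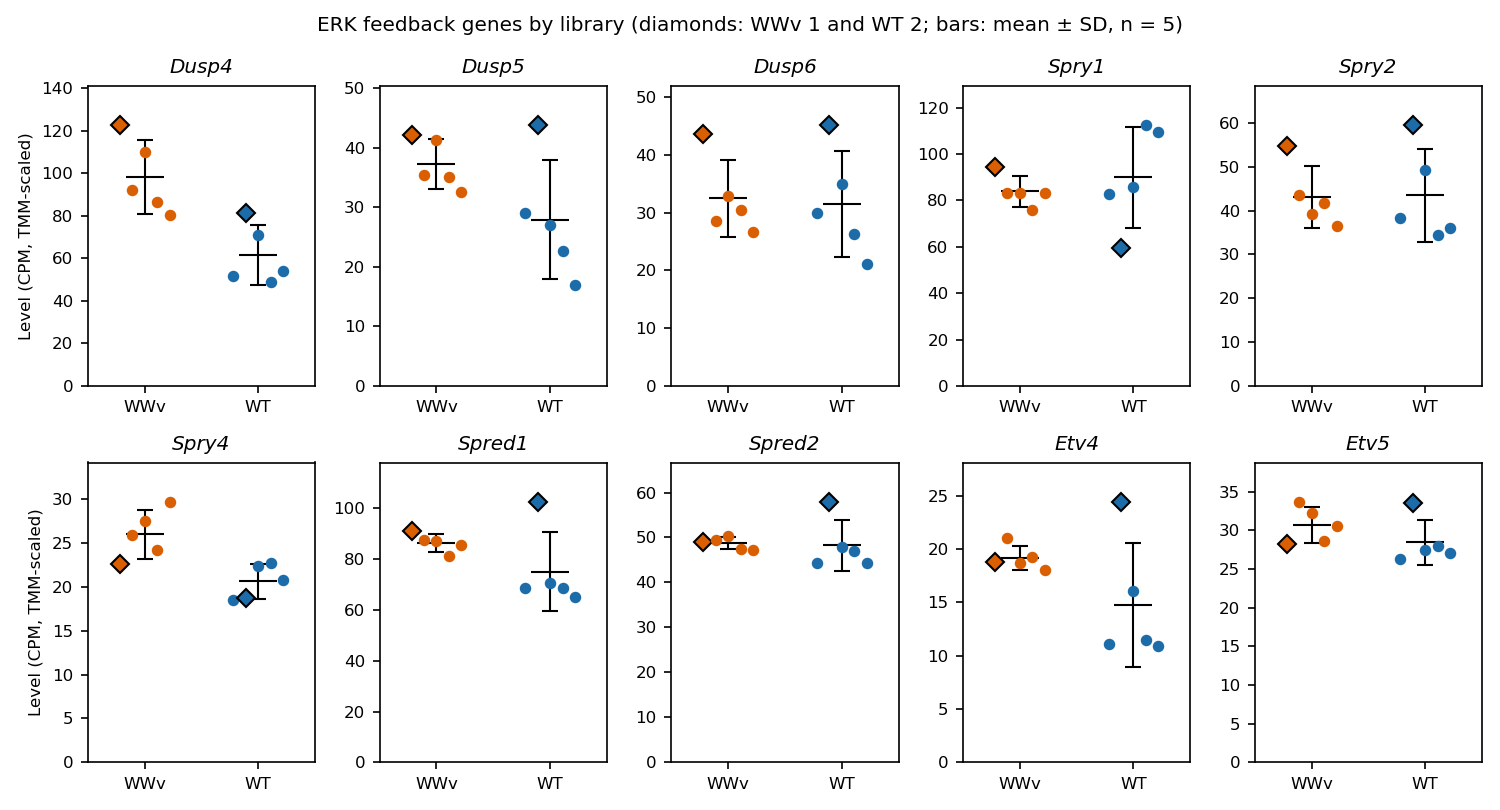
Levels of the 10 ERK feedback genes in CPM scaled by TMM factors (y axis, from 0) in each of 5 WWv libraries (orange) and 5 WT libraries (blue), with the mean and SD as bars and WWv 1 and WT 2 as diamonds. Dusp4 and Spry4 passed the threshold, and WT 2 was the highest WT library in 8 of 10 genes.

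Among the Sprouty genes only Spry4 passed, while WT 2 was the lowest WT library for Spry1 and the highest for Spry2. Spry4 (chromosome 18, 38586247 to 38601415, minus strand) encodes a Sprouty that is induced by growth factors. It stood at 22.6, 25.9, 27.5, 24.1 and 29.7 CPM in WWv, against 18.5, 18.7, 22.4, 22.7 and 20.7 CPM in WT. The groups overlapped by a narrow margin, with WWv 1 just below WT 4. The means were 25.9 ± 2.78 CPM in WWv and 20.6 ± 1.99 CPM in WT, and the change was 0.33 ± 0.09 (SD of the means and SE of the change, n = 5 each, edgeR adjusted p = 0.0171). It was 0.30 ± 0.09 without WT 2 (edgeR adjusted p = 0.0158), so that library, among the lowest of WT for Spry4, hardly moved the value.

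Spry1 (chromosome 3, 37639947 to 37644598, plus strand) encodes a Sprouty best known from kidney development. It stood at 94.3, 83.3, 83.2, 75.7 and 83.3 CPM in WWv, against 82.9, 59.5, 85.8, 113 and 109.6 CPM in WT. The WWv libraries lay close together inside a wide WT range, whose lowest library was WT 2. The change was -0.10 ± 0.15 (95% interval -0.43 to 0.23, edgeR adjusted p = 0.637). Without WT 2 it was -0.22 ± 0.10 (edgeR adjusted p = 0.0932). Gm42922, a gene on the opposite strand that shares 710 of the 2906 exon bases of Spry1, was itself counted at 0.339 CPM in WWv and 0.447 CPM in WT.

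Spry2 (chromosome 14, 105891947 to 105896819, minus strand) encodes the Sprouty best studied in receptor trafficking. It stood at 54.8, 43.5, 39.2, 41.6 and 36.5 CPM in WWv, against 38.3, 59.5, 49.2, 34.5 and 36.1 CPM in WT. The means were nearly equal, 43.1 ± 7.02 CPM in WWv and 43.5 ± 10.6 CPM in WT (SD, n = 5 each). Its change of -0.01 ± 0.16 (95% interval -0.36 to 0.34, edgeR adjusted p = 0.959) turned to 0.13 ± 0.13 without WT 2 (edgeR adjusted p = 0.44). WWv 1 and WT 2 were again the highest of their groups, as for Dusp6.

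SPRED1 and SPRED2 share a domain with the Sprouty proteins, and loss of SPRED1 in people causes a syndrome of overactive RAS signalling. Spred1 (chromosome 2, 117121374 to 117182279, plus strand) stood at 90.9, 87.3, 86.9, 81.0 and 85.4 CPM in WWv, against 68.4, 102, 70.5, 68.4 and 65.0 CPM in WT. All WWv libraries lay above 4 tightly grouped WT libraries and below WT 2. With all libraries the change was 0.20 ± 0.11 (95% interval -0.05 to 0.45, edgeR adjusted p = 0.198), and without WT 2 it was 0.34 ± 0.04 (edgeR adjusted p = 0.000153), the smallest adjusted p among the 10 members in that fit.

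Spred2 (chromosome 11, 19924375 to 20024026, plus strand) stood at 49.1, 49.5, 50.4, 47.4 and 47.3 CPM in WWv, against 44.4, 58.0, 47.8, 46.9 and 44.3 CPM in WT. It had the smallest spread of the members in WWv, with a coefficient of variation of 2.83%. The change was 0.01 ± 0.07 (95% interval -0.14 to 0.17, edgeR adjusted p = 0.904). Without WT 2 it was 0.09 ± 0.04 (edgeR adjusted p = 0.0989) and did not pass either.

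Etv4 (chromosome 11, 101769742 to 101785371, minus strand) stood at 18.8, 21.1, 18.7, 19.2 and 18.1 CPM in WWv, against 11.1, 24.4, 16.1, 11.5 and 10.9 CPM in WT. As in Dusp5 and Spred1, all WWv libraries lay between WT 2 and the other WT libraries. The change of 0.37 ± 0.21 did not pass (95% interval -0.08 to 0.83, edgeR adjusted p = 0.195), and without WT 2 it was 0.63 ± 0.11 (edgeR adjusted p = 0.00112). Its relative Etv5 (chromosome 16, 22381309 to 22439719, minus strand) stood at 28.2, 33.7, 32.2, 28.6 and 30.6 CPM in WWv, against 26.3, 33.5, 27.4, 27.96 and 27.1 CPM in WT. The Etv5 ranges lay closer together, with a change of 0.11 ± 0.08 (95% interval -0.06 to 0.28, edgeR adjusted p = 0.308) and of 0.18 ± 0.06 without WT 2 (edgeR adjusted p = 0.0295).

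**Figure D2:**
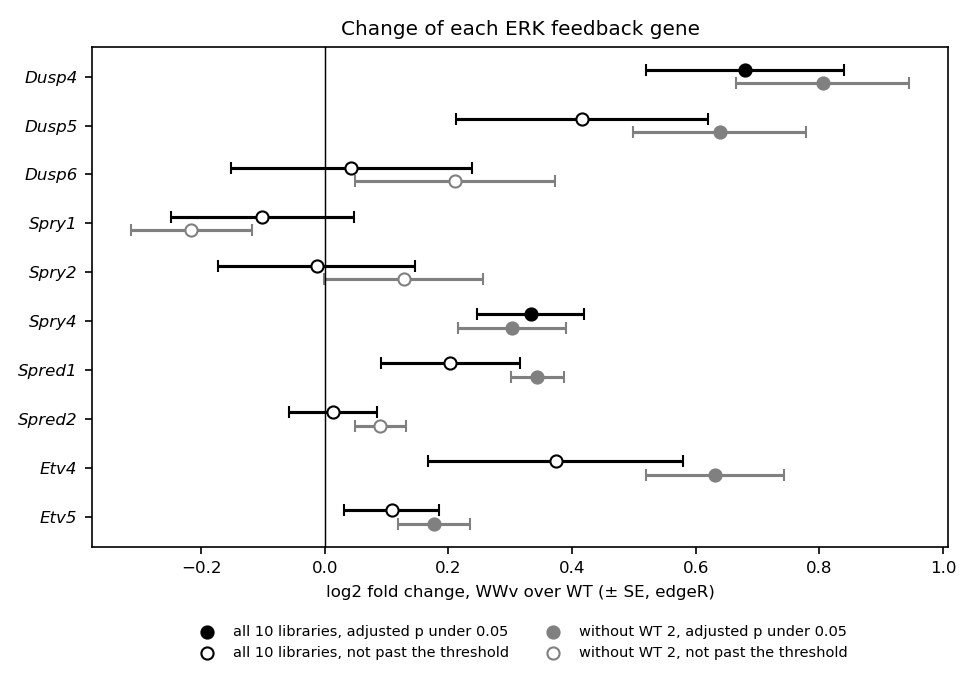
Log2 fold change of each member, WWv over WT (x axis, points with SE from edgeR), with all 10 libraries in black and without WT 2 in gray; filled points had an adjusted p under 0.05. With all libraries 2 of 10 members passed, and without WT 2 it was 6 of 10.

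A single WT library thus decided how many of these genes were called. Without WT 2, Dusp4, Dusp5, Spry4, Spred1, Etv4 and Etv5 were higher in WWv, 6 of 10 members, and 0 were lower. All genes moved with it: the share called higher was 22.7% in that fit, and the share called in either direction 46.2%. Groups without overlap were then seen in 5 of 10 members, all with WWv higher, against 17.5% of all genes in that direction and 36.3% in either. The members' median log2 fold change was 0.26 without WT 2, with -0.01 over all genes. WT 2 was the highest WT library in 8 of 10 members, against 33.1% of all tested genes. It was 1.97-fold above the mean of the other WT libraries for Etv4, 1.83-fold for Dusp5, 1.61-fold for Dusp6 and 1.51-fold for Spred1. For Spry1 it stood at 0.609 of that mean and for Spry4 at 0.887.

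Within WWv, WWv 1 was most often the highest library and WWv 5 most often the lowest. WWv 1 was the highest WWv library in 6 of 10 members, against 27.2% of all tested genes. It stood 1.47-fold above the mean of the other WWv libraries for Dusp6, 1.36-fold for Spry2 and 1.33-fold for Dusp4, and at 0.842 of that mean for Spry4 and 0.901 for Etv5. Dusp4, Dusp5, Dusp6, Spry2 and Spred1 had both WWv 1 and WT 2 as the highest library of their groups, while Spry4 had neither. WWv 5 was the lowest WWv library in 6 of 10 members and the highest for Spry4, and its share over all genes is not given here. It lay at 11.5 on the first principal component, against 31.4 to 33.4 in the other WWv libraries.

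**Figure D3:**
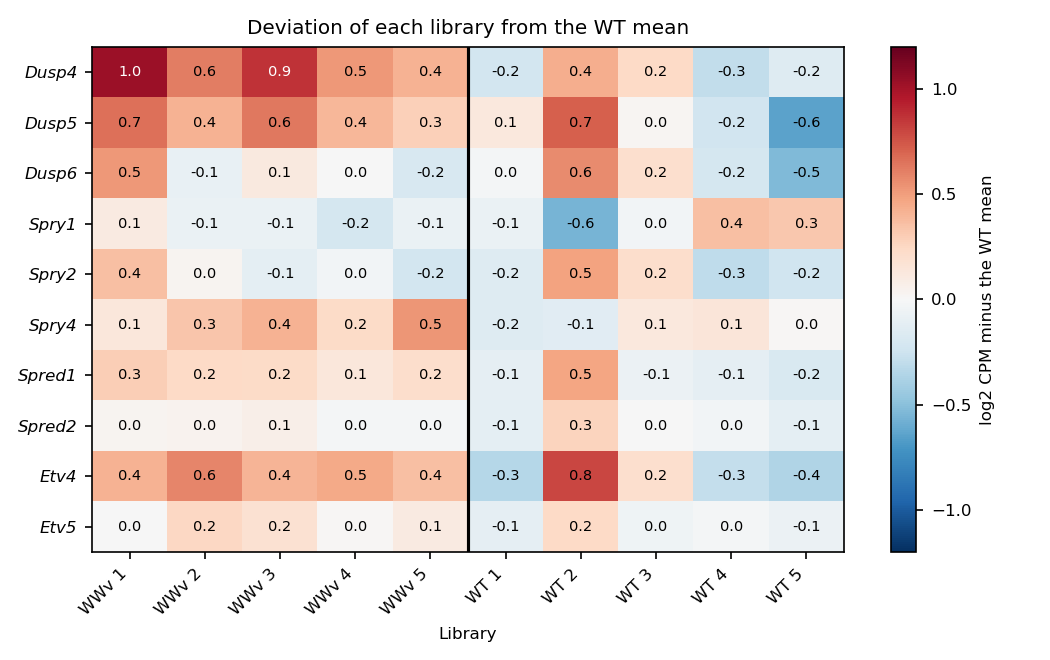
Difference of each library's log2 CPM from the WT mean (colour and printed value) for the 10 members (rows), with 5 WWv libraries left of the line and 5 WT libraries right of it. WT 2 was high for all members but Spry1 and Spry4, and Dusp4 was above the WT mean in 5 of 5 WWv libraries.

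The spread itself differed between the genes. The coefficient of variation ran from 2.83 to 20.5% in WWv and from 9.67 to 39.3% in WT, and it was larger in WT for 9 of 10 members, as for 68.6% of all tested genes. Without WT 2 it ran from 2.6 to 22.2% in WT and was larger there for 6 of 10 members, against 47.2% of all tested genes. Dusp6 had the largest spread in WWv and Etv4 the largest in WT. Spry4 was the 1 member with a wider relative spread in WWv, 10.7%, than in WT, 9.67%.

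Levels of different genes were compared per kilobase of exon. Dusp4 led in WWv at 35.9 ± 6.39 CPM per kilobase, followed by Spry1 at 28.9 ± 2.29, Spry2 at 20.7 ± 3.37 and Dusp5 at 15.1 ± 1.69 (SD, n = 5). Spred1 at 12.7 ± 0.531, Spred2 at 10.6 ± 0.299 and Dusp6 at 10.4 ± 2.12 CPM per kilobase formed the middle in WWv. The lowest in WWv were Etv5 at 7.48 ± 0.571, Etv4 at 6.18 ± 0.37 and Spry4 at 5.46 ± 0.586 CPM per kilobase. In WWv the ranges of mean ± SD overlapped in 3 of the 9 pairs of neighbours in this order, Dusp4 with Spry1, Spred2 with Dusp6, and Etv4 with Spry4. In WT Spry1 led at 31.0 ± 7.47 CPM per kilobase, with Dusp4 at 22.4 ± 5.15, and Spry4 was the lowest at 4.33 ± 0.419. In WT these ranges overlapped in 8 of 9 pairs of neighbours. The exception was Spry2 with Dusp5, at 20.9 ± 5.09 and 11.3 ± 4.04 CPM per kilobase, whose ranges lay close together. The top of the order thus held Spry1 and Dusp4 in both groups, with Dusp4 first in WWv and second in WT by its mean.

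Ratios of relatives within a library do not depend on how libraries are scaled, and 6 of them were compared between the groups. Dusp4 over Dusp6 stood at 1.49, 1.68, 1.74, 1.51 and 1.59 on the log2 scale in WWv, against 0.78, 0.85, 1.02, 0.89 and 1.35 in WT. Every WWv library was above every WT library. The mean log2 ratio was 1.60 ± 0.11 in WWv and 0.98 ± 0.23 in WT, a difference of 0.62 (two-sided exact permutation p = 0.00794, the smallest that 5 against 5 libraries can give, adjusted p = 0.0476 over 6 ratios, higher in 5 of 5 WWv libraries). Dusp4 was thus higher relative to Dusp6, by an amount that hardly moved without WT 2 (0.59, exact permutation, adjusted p = 0.0476). Leaving out 1 library allows an exact permutation p of 0.0159 at best. Over 6 ratios this adjusts to 0.0952 when no other ratio has a similarly small p. The ratio therefore could not pass by itself in these 10 comparisons. Its adjusted p was 0.0952 in 8 of them and passed in 2, without WWv 1 and without WT 2. In those 2, Dusp5 over Dusp6 also had an exact permutation adjusted p of 0.0476. These passes and failures thus cannot show how stable the ratio was. The difference itself stayed between 0.57 and 0.71.

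The other 5 ratios did not pass. Dusp5 over Dusp6 differed by 0.41 (exact permutation adjusted p = 0.0635, with 5 of 5 WWv libraries above the WT mean) and Spred1 over Spred2 by 0.20 (exact permutation adjusted p = 0.0635, also 5 of 5). Etv4 over Etv5 differed by 0.34 (exact permutation adjusted p = 0.19, 5 of 5), Spry4 over Spry2 by 0.33 (exact permutation adjusted p = 0.276, 4 of 5) and Spry1 over Spry2 by -0.07 (exact permutation adjusted p = 0.889, 2 of 5 above the WT mean). Without WT 2 the ratios Dusp5 over Dusp6 (0.45), Spred1 over Spred2 (0.25) and Etv4 over Etv5 (0.48) had an adjusted p of 0.0476 by the exact permutation test. Without WWv 1, Dusp5 over Dusp6 passed as well (0.48, exact permutation adjusted p = 0.0476).

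**Figure D4:**
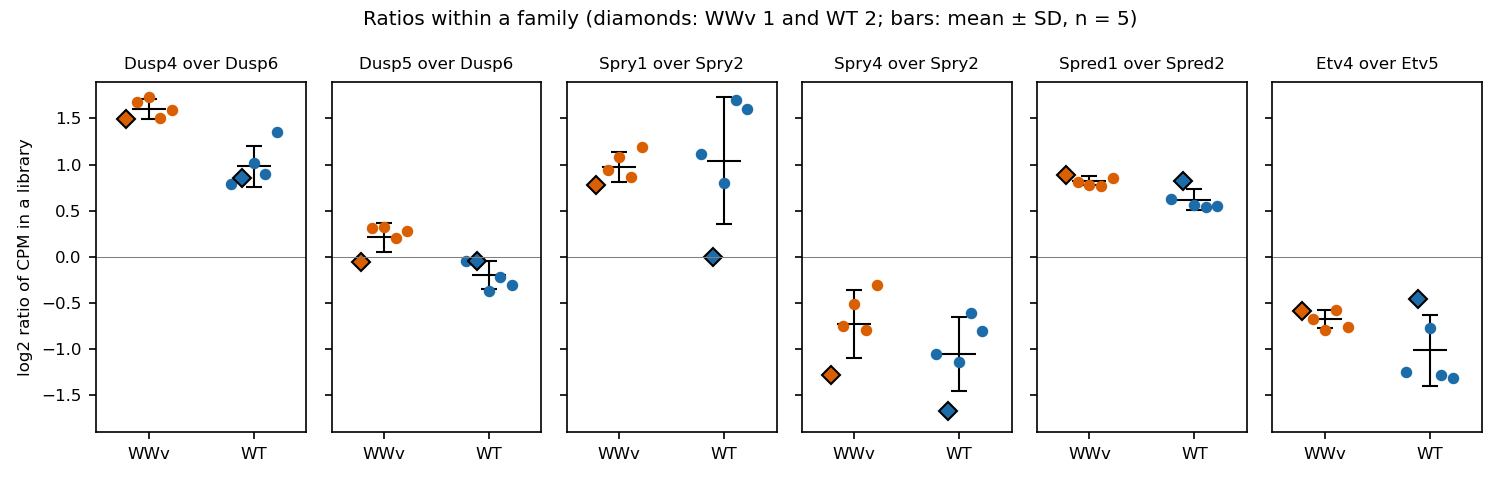
Log2 ratio of the CPM of relatives in the same library (y axis) for 6 pairs, in 5 WWv libraries (orange) and 5 WT libraries (blue), with mean and SD as bars and WWv 1 and WT 2 as diamonds. Only Dusp4 over Dusp6 separated the groups, at 1.49 to 1.74 in WWv and 0.78 to 1.35 in WT.

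The closest profiles among 12573 genes above a mean of 1 CPM were ranked by Pearson's r of log2 CPM over the 10 libraries, as a description that carries no test, since libraries of a group share their genotype and WT 2 weighs on every value. Dusp4 was most like Dpf1 (r = 0.99), Tmem200a (0.98) and Clip2 (0.98). Spry4 was most like Clock (0.97), Sox13 (0.97) and Chd9 (0.96). Dusp5 was most like Lrrc42 (0.99), Spred1 like Rbbp4 and Ptpa (0.98 each) and Etv4 like Papola (0.98). Dusp6 was nearest to Ctu2 (0.98), Spry2 to Utp14a (0.97), Spred2 to Prkdc (0.96) and Spry1 to AW146154 (0.96). Of the genes most like Dusp4, Dpf1 and Tmem200a were themselves higher in WWv (log2 fold changes 0.31 and 0.68, edgeR adjusted p = 0.0245 and 0.0215). Clip2 did not pass (0.13, edgeR adjusted p = 0.0633). All of them were picked for following Dusp4 across both groups, so their direction was largely given by that choice.

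The cascade that these genes restrain was read from a list of 23 components, of which 8 were higher in WWv, 3 were lower and 12 did not pass. With libraries scaled by their totals only, 5 were higher and 6 lower. The median log2 fold change of the list was 0.02. Over all tested genes 12.8% were higher and 15.4% lower, which is the background for this list and those below. Rps6ka2, a ribosomal S6 kinase that ERK activates, was 0.78 ± 0.14 higher, with 30.7 to 45.2 CPM in WWv and 16.9 to 29.8 CPM in WT (edgeR adjusted p = 0.00328). Rasa1, which turns RAS off, was 0.33 ± 0.08 higher (edgeR adjusted p = 0.0127). Ksr1, the scaffold that holds RAF, MEK and ERK together, changed by -0.79 ± 0.15 (edgeR adjusted p = 0.00405), at 15.8 to 19.2 CPM in WWv and 19.4 to 38.4 CPM in WT.

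Other MAP kinase phosphatases were higher in 2 of 7 tested members and lower in 0, with a median of 0.23. Dusp1, the immediate early phosphatase for p38, JNK and ERK, was at 157 to 229.9 CPM in WWv and 103 to 132 CPM in WT (0.70 ± 0.10, edgeR adjusted p = 0.00111), without overlap and by about as much as Dusp4. Dusp8 was 0.24 ± 0.07 higher (edgeR adjusted p = 0.0324). The list's count of higher genes was 1 with libraries scaled by their totals only and without any 1 of WWv 1, WWv 4, WWv 5, WT 1 and WT 3. Of the relatives Spred3 (-0.16 ± 0.08, edgeR adjusted p = 0.14) and Etv1, neither of the 2 tested passed, and Spry3 was not analysed here. Among 9 ETS partners and repressors Ets1 was 0.50 ± 0.06 higher (edgeR adjusted p = 0.000548) and Ets2 changed by -0.38 ± 0.07 (edgeR adjusted p = 0.00326). Their directions were opposite and in both the groups did not overlap.

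Of 12 other genes known as ERK outputs 3 were higher, 0 lower and 9 did not pass, with a median of 0.17. Egr1, an immediate early zinc finger factor, was at 416 to 721 CPM in WWv and 258 to 338 CPM in WT (0.87 ± 0.14, edgeR adjusted p = 0.00165). Epha4, an ephrin receptor, was 0.75 ± 0.15 higher (edgeR adjusted p = 0.00583) and Mcl1, which protects cells from apoptosis, 0.15 ± 0.04 higher (edgeR adjusted p = 0.0308). Ccnd1, the cyclin by which ERK drives entry into the cycle and chosen for mention after its values were seen, spanned 189 to 482 CPM in WWv and 78.5 to 582 CPM in WT, with WT 2 the highest, and did not pass (0.60 ± 0.53, edgeR adjusted p = 0.413).

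Upstream of the cascade, growth factor receptors were higher in 1 and lower in 4 of 15 tested members, with a median of -0.12. Kit was among the lower ones (-1.04 ± 0.25, edgeR adjusted p = 0.0122), as was Egfr, the receptor for epidermal growth factor and its relatives, at 77.8 to 122.5 CPM in WWv and 136 to 200.1 CPM in WT (-0.89 ± 0.15, edgeR adjusted p = 0.00201). Pdgfra changed by -0.64 ± 0.13 (edgeR adjusted p = 0.00631), and the 1 that rose was the insulin-like growth factor receptor gene Igf1r (0.29 ± 0.05, edgeR adjusted p = 0.00271). Among 15 tested ligands 2 were higher and 4 lower. Hbegf, a ligand of the epidermal growth factor receptor, was at 64.9 to 88.1 CPM in WWv and 26.6 to 64.1 CPM in WT (1.02 ± 0.21, edgeR adjusted p = 0.00657), while Kitl, which encodes stem cell factor, changed by -1.18 ± 0.18 (edgeR adjusted p = 0.00153), Hgf by -0.66 ± 0.15 (edgeR adjusted p = 0.01) and Egf by -0.63 ± 0.20 (edgeR adjusted p = 0.0415).

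**Figure D5:**
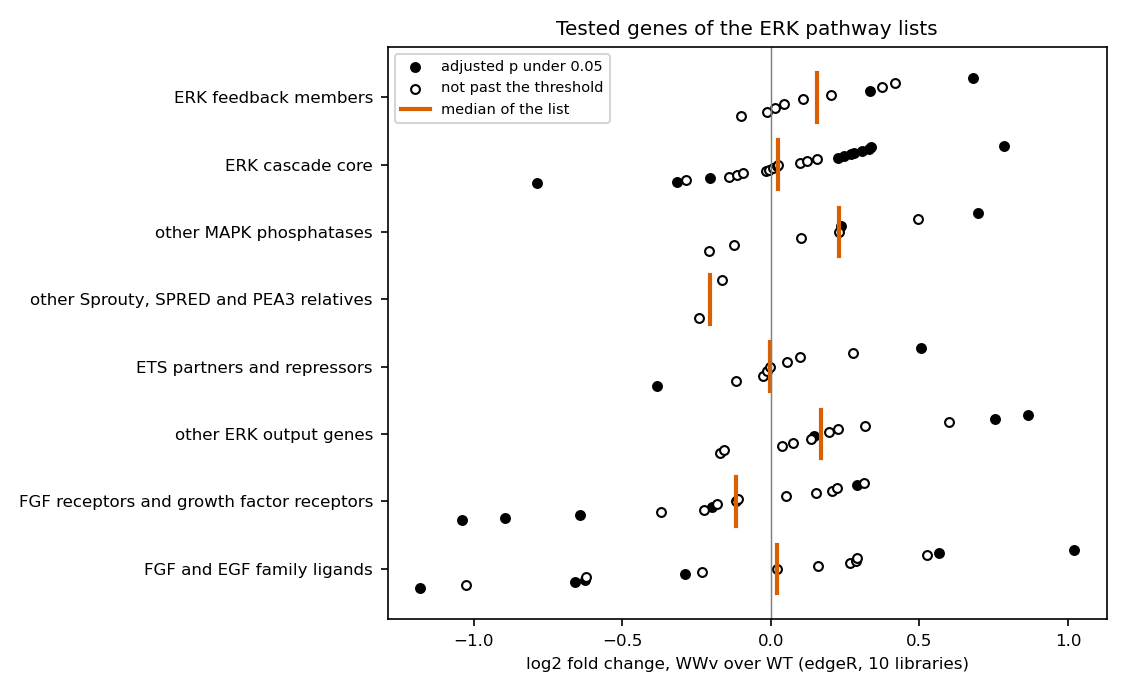
Log2 fold change, WWv over WT (x axis), of each tested gene in the 10 members and in 7 lists of the ERK pathway, filled where the edgeR adjusted p was under 0.05, with the list's median as an orange bar. Medians ran from -0.20 in the 2 remaining relatives to 0.23 in the other MAP kinase phosphatases, and 17 genes of the 7 lists were higher and 12 lower.

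Over these 7 lists together 17 genes were higher and 12 lower, and without WT 2 the counts were 30 and 19. With libraries scaled by their totals only, 12 were higher and 18 lower, so which direction held more calls depended on the scaling. Without WT 2, 5 of 7 other MAP kinase phosphatases, 7 of 12 ERK outputs and 10 of 23 cascade components were higher. Calls over all genes rose as well, with 22.7% higher and 23.5% lower in that fit, against 12.8% and 15.4% with all libraries. The lists were described by their counts alone. Rasa1, Ksr1, Ccnd1, Dusp1, Dusp8, Spred3, Pdgfra, Hgf and Egf overlap other genes, so their reads are uncertain to differing degrees. The shared exon bases were only 11 in Dusp1 and 12 in Rasa1, against 1100 in Ccnd1. Of the cell type lists, 4 of 5 fibroblast markers were lower in WWv, with sums of 196 to 286 CPM in WWv and 312 to 526 CPM in WT, where WT 2 was the lowest. None of the 6 endothelial and the 4 tested macrophage markers passed, and 11 of 20 cell cycle genes were higher. That count was 19 without WT 2, and 7 with libraries scaled by their totals only or without any 1 of WWv 2, WWv 3, WWv 4, WWv 5, WT 1, WT 3, WT 4 and WT 5. Their part in the members' values was not tested.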

How the data were processed

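Per the file headers and values, the authors deposited unnormalized read counts for 54446 Ensembl IDs. Per the submitters' processing notes, bcl2fastq 2.17, Trim Galore 0.4.3 and STAR 2.5.2a were used with mm10; the sources used here do not give the counting tool, its strand setting or the annotation. Names, positions and exon lengths came from GENCODE M21, built on GRCm38, to which mm10 corresponds (54409 IDs matched without their version; a shared symbol went to the ID with the most counts). The test was edgeR 4.0.16 (R 4.3.3), quasi-likelihood, two-sided, with genotype as the only term, TMM scaling, filterByExpr at a minimum count of 10 and Benjamini-Hochberg adjustment over 15181 genes at 0.05. SE is the absolute log2 fold change over the square root of F. CPM used TMM-scaled library sizes, which moves levels if total RNA output differs. The TMM factors were split by group, at 1.01 to 1.06 in WT and 0.957 to 0.984 in WWv. WWv levels relative to WT are therefore higher with TMM than with library size only. The median log2 fold change of all tested genes was -0.01 with TMM and -0.09 with library size only. Log2 ratios and profiles used a prior count of 2, with exact permutation tests in scipy 1.17.1.

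The alternatives were RLE scaling, library size only, no low-count filter, 1 CPM in 5 libraries, DESeq2 1.42.0, limma-voom (limma 3.58.1), the replicate number as a block and leaving out each library. Replicates differed by more than counting noise (chi-square per degree of freedom at least 9.29 in 20 pairs). On simulated counts for WWv against WT over 15005 genes, the procedure recovered 72% of 50 genes changed 1.5-fold, 96% of 50 changed 2-fold, 96% of 50 changed 3-fold and 98% of 50 changed 4-fold, and 13 of 194 calls were false. The simulated libraries were drawn independently around the WT means, with 200 changed genes and no outlying library such as WT 2. No change under 1.5-fold was simulated. These rates therefore check the procedure and do not give the recovery or false calls in the real libraries. Named were all 10 members, from each of 15 lists up to 4 genes past the threshold with the largest change or else the gene with the smallest p, and the 3 most similar genes of each member, of which the text gives some. The members and lists were chosen with earlier results of these data known. Some genes that these rules would name are not reported here.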

Additional observations from a re-analysis of the deposited data

Results flagged for a closer look

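In a group of 5 libraries, a highest or lowest library was picked out when its gap to its neighbour took more than 0.71 of the group's range (Dixon's test), and 20 groups of member levels and 12 of ratios were examined. Chance flags about 1 in 20 groups. WT 2 was the high library each time. Groups that share the same libraries are not independent, so the number of flags cannot be set against that rate. Spred1 stood at 102 CPM in WT 2 (gap 0.854 of the range), Spred2 at 58.0 CPM (0.742) and Etv5 at 33.5 CPM (0.768). No WWv group and no ratio was picked out.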

How the results depend on the processing

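The calls of Dusp4 (log2 fold change 0.59 to 0.81, adjusted p 0.000483 to 0.0329) and Spry4 (0.25 to 0.38, adjusted p 0.00328 to 0.0452) were kept in all 17 alternatives run. With library size only, 983 genes were called higher and 3599 lower, and Dusp6 changed sign to -0.046 and Spred2 to -0.074. Spred2 also changed sign to -0.010 with the filter of 1 CPM in 5 libraries, and Spry2 to 0.0039 with limma-voom and 0.0048 with the replicate block. The replicate numbers do not pair the libraries: deviations of same-numbered libraries correlated at -0.09 to 0.31, over 0.1 in 1 of 5 pairs, and 0 of 5 matched best with their own number. With the replicate number as a block, 1693 genes were higher and 1943 lower, and 2 members were higher and 0 lower.

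Leaving out each library gave 2 to 6 higher and 0 lower members, 1286 to 3507 higher and 1721 to 3620 lower genes, and 14 to 30 higher and 10 to 19 lower genes over the 7 lists, with the highest count each time without WT 2. The log2 fold changes ranged over 0.59 to 0.81 for Dusp4, 0.28 to 0.64 for Dusp5, -0.089 to 0.21 for Dusp6, -0.22 to -0.0083 for Spry1, -0.12 to 0.13 for Spry2, 0.27 to 0.38 for Spry4, 0.16 to 0.34 for Spred1, -0.015 to 0.090 for Spred2, 0.28 to 0.63 for Etv4 and 0.070 to 0.18 for Etv5. The ratios ranged over 0.57 to 0.71 for Dusp4 over Dusp6, 0.37 to 0.48 for Dusp5 over Dusp6, -0.33 to 0.092 for Spry1 over Spry2, 0.17 to 0.46 for Spry4 over Spry2, 0.18 to 0.25 for Spred1 over Spred2 and 0.26 to 0.48 for Etv4 over Etv5. The cause of these shifts was not tested.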
